A study of Mus musculus with 8 samples.

Results

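The 9 genes described here code for enzymes of the tricarboxylic acid (TCA) cycle outside its oxoacid dehydrogenase step. They are Cs, Idh3a, Idh3b, Idh3g, Suclg1, Sucla2, Sdha, Fh1 and Mdh2, and their rows were taken by gene symbol from the 28239 symbols of the count table. The set was chosen with it known from these data that TCA cycle genes were lower as a list, so a shared direction is not independent support. All 9 were listed there, and all 9 passed the filter on low counts (at least 2 CPM, the read count scaled to library size, in at least 4 libraries), which kept 12700 genes for testing. Naïve CD4+ T cells from the spleens of C57BL/6 WT mice and of Alox15-/- mice on the same strain background were isolated by immunomagnetic negative selection, a step meant to remove cells of other types, and cultured for 2 days. The medium held TGF-β at 5 ng/ml, IL-2 at 100 U/ml and 1 bead per cell coated with antibodies to CD3 and CD28. These conditions drive differentiation to regulatory T cells (Tregs), and both genotypes received them. RNA was profiled by MACE-seq, which sequences tags near the 3′ ends of transcripts, in 8 libraries, 4 of them labelled Alox15-/- and 4 labelled WT, each from a separate mouse. The methods give 10 to 12 weeks and both sexes for the mice of the whole study, without assigning them to these libraries, and name different suppliers for the WT and the mutant mice, so genotype and supplier cannot be told apart.

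Total counts per library were 3723151 to 6952596 for the Alox15-/- label and 4810125 to 9538962 for WT. Reads counted on Alox15 (ENSMUSG00000018924.6) numbered 292, 255, 337 and 454 in the libraries labelled Alox15-/- and 12, 16, 77 and 43 in those labelled WT. The edgeR quasi-likelihood test gave 3.65 ± 0.299 (SE) on the log2 scale, with an adjusted p of 1.08e-05. The level thus lay above WT in every library labelled Alox15-/-. Whether the counted 3′ tags lie inside the deleted part of the gene is not given in the sources used here, so the tags do not check the deletion, and every difference below compares libraries by their labels, Alox15-/- over WT. Foxp3, the defining transcription factor of Tregs, was detected in all 8 libraries, at 71.3, 94.98, 92.5 and 112.9 CPM in the libraries labelled Alox15-/- and at 108.8, 101.1, 194.4 and 92.9 CPM in those labelled WT.

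The TCA cycle runs in the mitochondrial matrix, where it oxidizes the acetyl group of acetyl-CoA to carbon dioxide and passes the electrons to the respiratory chain. Its intermediates are also drawn off for the synthesis of lipids and amino acids, a use that matters in T cells that have been activated and are about to divide. Tregs are known to lean on mitochondrial oxidation more than effector T cells do. Citrate synthase (Cs) joins acetyl-CoA to oxaloacetate, isocitrate dehydrogenase 3 (Idh3a, Idh3b and Idh3g) makes 2-oxoglutarate, succinyl-CoA ligase (Suclg1 with Sucla2 or Suclg2) makes succinate, succinate dehydrogenase (Sdha and its partners) makes fumarate, fumarase (Fh1) makes malate, and malate dehydrogenase 2 (Mdh2) restores oxaloacetate.

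None of the 9 genes passed an adjusted p of 0.05, whereas 1.24% of all genes tested did. All 9 had a log2 fold change below 0, between -0.14 for Sdha and -0.04 for Idh3g, with a median of -0.10, while 51.8% of all genes tested had one below 0 and their median was -0.01. In percent, the fitted differences ran from -9.43% to -2.94%. No member reached an unadjusted p of 0.05 with a lower level, as 3.38% of all genes tested did, and in 0 of the 9 genes did all 4 libraries labelled Alox15-/- lie below all 4 labelled WT, as in 2.51% of all genes tested. The 95% intervals of all 9 differences included 0. Their lowest bound was -21.7%, for Mdh2, and their highest was 11.5%, for Idh3b.

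**Figure D1:**
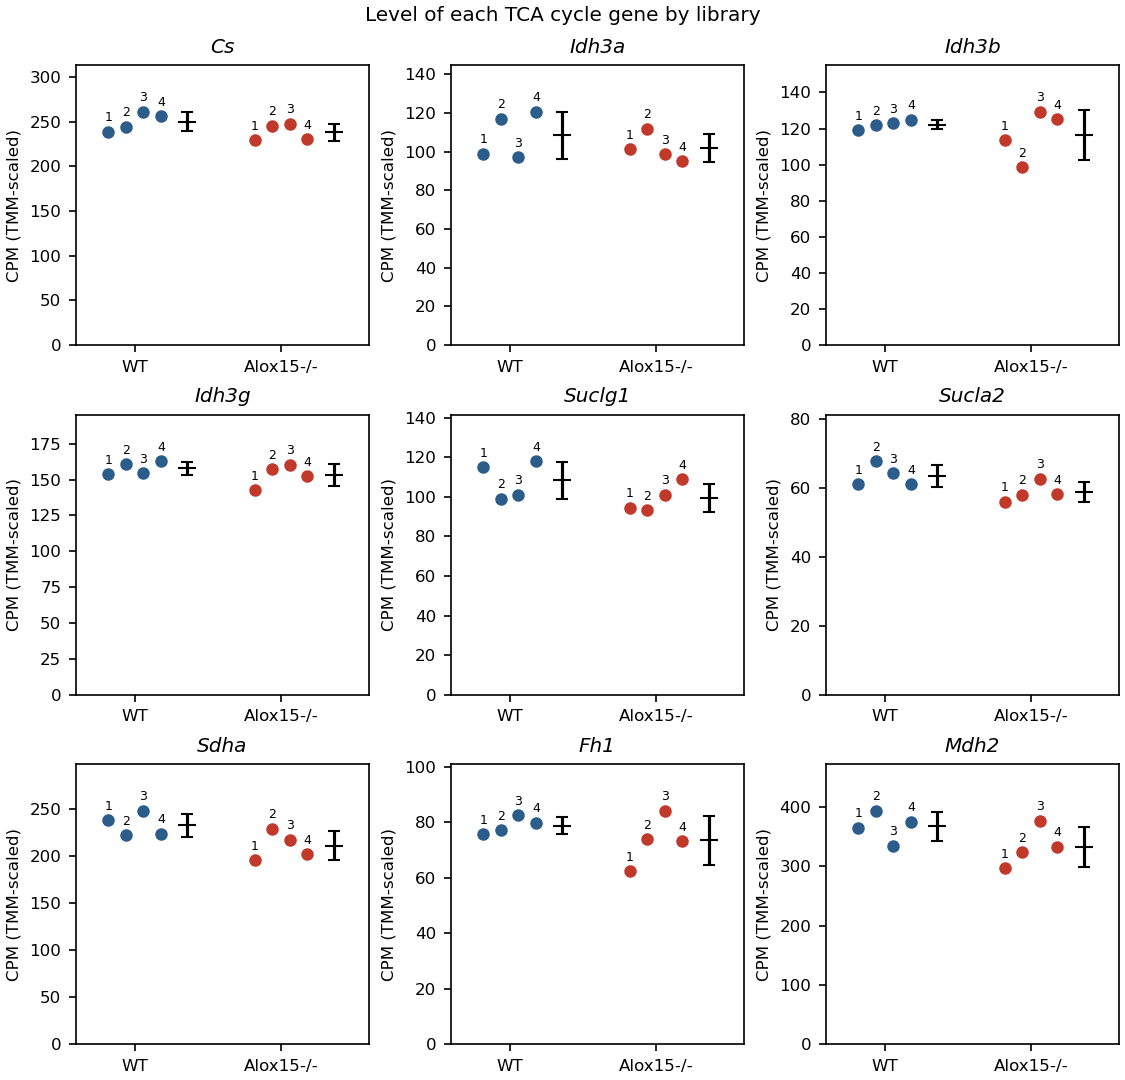
TMM-scaled CPM (y axes, from 0) of each of the 9 genes in the 4 WT libraries (blue) and the 4 libraries labelled Alox15-/- (red), with the replicate number above each point and the mean ± SD (n = 4) beside each group. In every panel the points of the groups overlap, and the largest fitted difference is -9.43%, for Sdha.

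The 9 genes lie on 9 different chromosomes, and none lies on chromosome 11, where Alox15 is. Positions are those of GENCODE for GRCm38, the build named in the submitters' processing notes. To show what the start regions of these genes hold, the window from 250 bases before to 50 bases after the RefSeq start (GRCm38.p6) is printed for the genes with the largest (Sdha), second largest (Mdh2) and smallest (Idh3g) fitted difference, 5′ to 3′ on the strand of the gene. Capitals mark matches, on either strand, to the letters searched for nuclear respiratory factor 1 (NRF1, GCGCANGCG), ETS factors such as GABP (CCGGAAG), YY1 (AAGATGGCG), ERR receptors (TCAAGGTCA) and the E-box (CACGTG).
Sdha (chr13:74350191-74350490, minus strand): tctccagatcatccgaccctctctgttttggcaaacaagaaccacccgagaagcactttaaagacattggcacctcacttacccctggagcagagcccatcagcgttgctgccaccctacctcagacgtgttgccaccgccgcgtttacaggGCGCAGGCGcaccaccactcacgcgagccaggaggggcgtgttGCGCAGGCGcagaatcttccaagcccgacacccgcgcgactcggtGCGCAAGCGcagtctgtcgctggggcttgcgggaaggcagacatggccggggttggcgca
Mdh2 (chr5:135778399-135778698, plus strand): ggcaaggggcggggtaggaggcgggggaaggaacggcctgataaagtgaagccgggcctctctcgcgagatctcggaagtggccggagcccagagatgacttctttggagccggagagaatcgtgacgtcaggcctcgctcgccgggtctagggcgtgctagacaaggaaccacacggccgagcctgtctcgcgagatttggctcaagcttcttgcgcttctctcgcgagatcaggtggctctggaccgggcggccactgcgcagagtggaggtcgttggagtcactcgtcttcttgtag
Idh3g (chrX:73786848-73787147, minus strand): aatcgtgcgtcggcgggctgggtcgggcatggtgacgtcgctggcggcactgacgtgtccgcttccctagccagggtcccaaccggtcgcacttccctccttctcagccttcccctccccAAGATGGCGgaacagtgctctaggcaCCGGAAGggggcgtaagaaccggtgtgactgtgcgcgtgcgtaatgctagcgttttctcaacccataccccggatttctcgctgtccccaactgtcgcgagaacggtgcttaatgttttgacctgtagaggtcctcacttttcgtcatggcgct

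The Sdha window held 3 matches to the NRF1 letters, at 98, 55 and 10 bases before the start. In the Idh3g window stood a YY1 match at 130 and an ETS match at 104 bases before the start. The Mdh2 window held 0 of the 5 motifs. RefSeq windows were found for 8 of the 9 genes, Idh3a being the one not matched, and that of Sucla2 starts inside the GENCODE gene. NRF1 letters occurred in 2 of these 8 windows (Sdha and Sucla2), in 13.9% of the windows of all genes tested and in 6.25% of all 32851 windows. ETS letters were in 2 (Idh3b and Idh3g), in 18.6% and in 8.86% of the same windows, and YY1 letters in 1 (Idh3g), in 3.26% and in 1.40%. The ERR letters (0.263% of the windows of genes tested, 0.423% of all) and the E-box (10.2% and 7.15%) were in 0 of the 8. No overlap between matches occurred in the member windows. These are matches of letters in a short window, and no binding was measured.

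Cs (ENSMUSG00000005683.8; chromosome 10, 128337734 to 128362479, plus strand) codes for the enzyme that opens the cycle. In the libraries labelled Alox15-/- 1 to 4 it was at 229, 246, 247 and 230.5 CPM. The WT libraries 1 to 4 were at 239, 244, 261 and 256 CPM. The mean level was 239 ± 9.67 against 251 ± 10.4 CPM (SD, n = 4 each), and 2 of the 4 libraries labelled Alox15-/- lay within the WT range. The difference, a log2 fold change of -0.07 (95% interval -0.26 to 0.12, edgeR adjusted p = 0.899), was about as large as the spread in either group.

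Isocitrate dehydrogenase 3 is the NAD-dependent enzyme of the matrix, with a catalytic α subunit from Idh3a and β and γ subunits from Idh3b and Idh3g. Idh3a (ENSMUSG00000032279.11; chromosome 9, 54586334 to 54604661, plus strand) was at 101, 112, 98.8 and 94.9 CPM in the libraries labelled Alox15-/-. Its WT values were 98.8, 117, 97.1 and 120.5 CPM, so that WT itself split into a lower and a higher pair and only Alox15-/- replicate 4 fell outside the WT range. The log2 fold change was -0.09 (95% interval -0.32 to 0.14, edgeR adjusted p = 0.889).

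Idh3b (ENSMUSG00000027406.12; chromosome 2, 130279309 to 130284547, minus strand) stood at 114, 98.5, 129 and 125 CPM in the libraries labelled Alox15-/- against 119, 122, 123 and 125 CPM in WT. Replicate 2 was the lowest of all 8 libraries and replicate 3 the highest, both of them labelled Alox15-/-, and the SD there was 13.9 CPM against 2.45 CPM in WT (n = 4 each). The log2 fold change of -0.06 (edgeR adjusted p = 0.926) turned to 0.01 without Alox15-/- replicate 2. The 3′ end of Idh3b meets that of Nop56 on the opposite strand, with 5 shared bases, and Nop56 had 621 to 2080 counts per library. Since strand use in the counting is not stated, tags at this junction could be assigned to either gene.

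Idh3g (ENSMUSG00000002010.17; chromosome X, 73778963 to 73786897, minus strand), whose start region is printed above, was at 142, 157, 160.5 and 153 CPM in the libraries labelled Alox15-/-. In WT it was at 154, 161, 154 and 163 CPM. Replicate 1 of the libraries labelled Alox15-/- was the lowest, and the other three lay within or close to the WT range. Of the 9 genes it had the smallest difference, a log2 fold change of -0.04 (95% interval -0.23 to 0.15, edgeR adjusted p = 0.944). Without Alox15-/- replicate 2 the difference of Idh3b was smaller in size, at 0.01 against -0.05 for Idh3g.

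Succinyl-CoA ligase pairs a common α subunit, from Suclg1, with a β subunit that sets whether ATP (Sucla2) or GTP (Suclg2) is made. Suclg1 (ENSMUSG00000052738.14; chromosome 6, 73248382 to 73276911, plus strand) was at 94.6, 93.4, 101 and 109 CPM in the libraries labelled Alox15-/- and at 115, 99.2, 101 and 118 CPM in WT. Replicates 1 and 4 of WT were above every library labelled Alox15-/-, and WT replicates 2 and 3 were not (log2 fold change -0.12, 95% interval -0.34 to 0.10, edgeR adjusted p = 0.844).

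Sucla2 (ENSMUSG00000022110.13; chromosome 14, 73525319 to 73596142, plus strand) had the lowest level of the 9 genes, at 55.9, 58.0, 62.6 and 58.1 CPM in the libraries labelled Alox15-/-. The WT libraries held 61.0, 67.6, 64.2 and 61.0 CPM. Here 3 of the 4 libraries labelled Alox15-/- lay below every WT library and replicate 3 did not, with means of 59.0 ± 2.84 and 63.8 ± 3.16 CPM (SD, n = 4 each). The log2 fold change was -0.11 (95% interval -0.32 to 0.10, edgeR adjusted p = 0.844). Suclg2, the other β subunit, had a log2 fold change of -0.14 (95% interval -0.46 to 0.18, edgeR adjusted p = 0.874).

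Sdha (ENSMUSG00000021577.14; chromosome 13, 74322254 to 74350280, minus strand) codes for the flavoprotein subunit of succinate dehydrogenase, which is at once an enzyme of the cycle and complex II of the respiratory chain. It was at 195, 229, 217 and 202 CPM in the libraries labelled Alox15-/- and at 238, 222, 248 and 224 CPM in WT. Only Alox15-/- replicate 2 lay inside the WT range, and the other three were below it. The means were 212 ± 15.2 and 234 ± 12.3 CPM (SD, n = 4 each), and the log2 fold change of -0.14 (95% interval -0.34 to 0.06, edgeR adjusted p = 0.773) was the largest in size among the 9 genes. This rank did not hold in every fit. Without Alox15-/- replicate 3, Mdh2 was at -0.20 and Sdha at -0.15.

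Fh1 (ENSMUSG00000026526.14; chromosome 1, 175600374 to 175625635, minus strand), the gene of fumarase, was at 62.4, 73.9, 84.1 and 73.3 CPM in the libraries labelled Alox15-/-. Its WT values of 75.7, 77.2, 82.6 and 79.8 CPM fell between the extremes of that group, since Alox15-/- replicate 1 was the lowest and replicate 3 the highest of all 8 libraries. The SD was 8.90 CPM in the libraries labelled Alox15-/- and 3.07 CPM in WT (n = 4 each), and the log2 fold change was -0.10 (95% interval -0.33 to 0.13, edgeR adjusted p = 0.871).

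Mdh2 (ENSMUSG00000019179.10; chromosome 5, 135778480 to 135790398, plus strand), which closes the cycle, had the highest level of the 9 genes. The libraries labelled Alox15-/- held 297, 324, 377 and 333 CPM and the WT libraries 365, 394, 335 and 376 CPM. Replicates 1, 2 and 4 of the former were below every WT library, while replicate 3 lay above 3 of the 4 WT libraries. The means were 335 ± 33.7 and 369 ± 24.5 CPM (SD, n = 4 each), with a log2 fold change of -0.14 (95% interval -0.35 to 0.07, edgeR adjusted p = 0.792).

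The deviations of the 9 genes from their own means differed between libraries of the same group. Alox15-/- replicate 1 was below the mean in all 9 genes, by 0.14 on average on the log2 scale, and was the lowest of the 8 libraries for Cs, Idh3g, Sucla2, Sdha, Fh1 and Mdh2. Alox15-/- replicate 3 was below the mean in 3 of the 9 genes, replicate 4 in 7 and replicate 2 in 5. In WT replicate 4 it was 0 of the 9, in replicate 2 it was 1, in replicate 3 it was 4 and in replicate 1 it was 4, or 5 when a prior count of 2 was added before taking logs, since some genes there lay almost at their mean. Summed over the 9 genes, the libraries labelled Alox15-/- held 1292, 1390, 1479 and 1379 CPM and the WT libraries 1465, 1503, 1466 and 1522 CPM. Replicate 3 of the libraries labelled Alox15-/- exceeded 2 WT libraries, and the groups therefore overlapped. The median log2 fold change of the 9 genes was -0.09 without Alox15-/- replicate 1, -0.12 without replicate 3 and -0.07 without WT replicate 4. Without Alox15-/- replicate 3 the groups no longer overlapped for Sucla2, Fh1 and Mdh2, as for 4.02% of all genes then tested, and without Alox15-/- replicate 2 this held for Sdha, as for 4.10%.

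**Figure D2:**
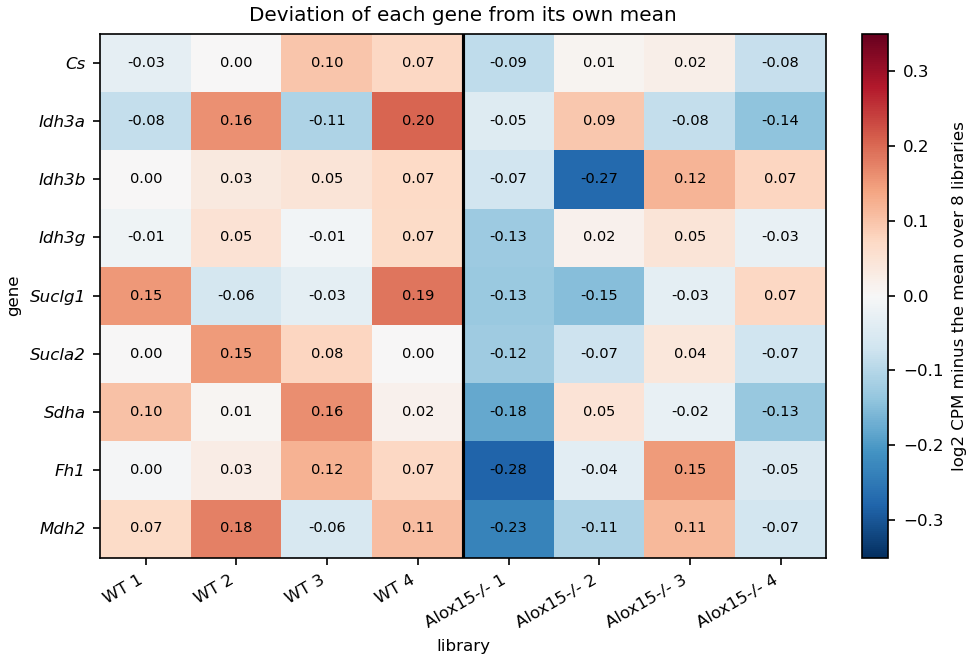
Log2 CPM of each of the 9 genes (rows) in each library (columns, WT left of the line) minus the mean of that gene over the 8 libraries, in colour and as a number. The column of Alox15-/- replicate 1 is below 0 in all 9 genes, and that of Alox15-/- replicate 3 is below 0 in 3.

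The order of the levels was Mdh2 (350.1 CPM over all 8 libraries), Cs (244), Sdha (222), Idh3g (156), Idh3b (119), Idh3a (105), Suclg1 (104), Fh1 (76.1) and Sucla2 (61.1). MACE-seq counts a transcript by tags near its 3′ end, so these CPM were not divided by transcript length. All 9 genes were well expressed, from the 72.8th percentile (Sucla2) to the 96.3th percentile (Mdh2) of the mean levels of genes tested, and rested on at least 215 counts in each library. Most neighbours in this order kept their order in 8 of 8 libraries, although Cs and Sdha came close, the smallest log2 ratio between them being 0.01. Idh3b was above Idh3a in 7 of 8 libraries, and Idh3a above Suclg1 in 4 of 8, so that Idh3a and Suclg1 did not differ beyond their spread.

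Ratios between genes of one enzyme or of related reactions were taken within each library, where the scaling of libraries cancels. Idh3a stood to Idh3g at a log2 ratio of -0.59 ± 0.117 in the libraries labelled Alox15-/- and -0.55 ± 0.120 in WT (SD, n = 4 each). For Idh3b to Idh3g the values were -0.40 ± 0.184 and -0.37 ± 0.031, with Alox15-/- replicate 2 at -0.67 and the other three between -0.33 and -0.28. Idh3a to Idh3b gave -0.19 ± 0.273 and -0.18 ± 0.146. In all 3 pairs of subunits the groups overlapped.

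Sucla2 exceeded Suclg2 by a log2 ratio of 0.92 ± 0.301 in the libraries labelled Alox15-/- and 0.90 ± 0.256 in WT (SD, n = 4 each), so that the ATP-linked β subunit had more tags than the GTP-linked one in all 8 libraries. Sucla2 to Suclg1 was at -0.76 ± 0.103 and -0.77 ± 0.195. Sdha and Sdhb, the iron-sulfur subunit of the same complex, were nearly level, at 0.02 ± 0.129 and 0.10 ± 0.101. Mdh2 to Cs gave 0.48 ± 0.112 and 0.55 ± 0.140, and Mdh2 to its cytosolic counterpart Mdh1 gave 0.61 ± 0.181 and 0.70 ± 0.164. In each of these 8 ratios the groups overlapped, and the difference between their means was at most 0.09 in size, which is smaller than the SD of either group.

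**Figure D3:**
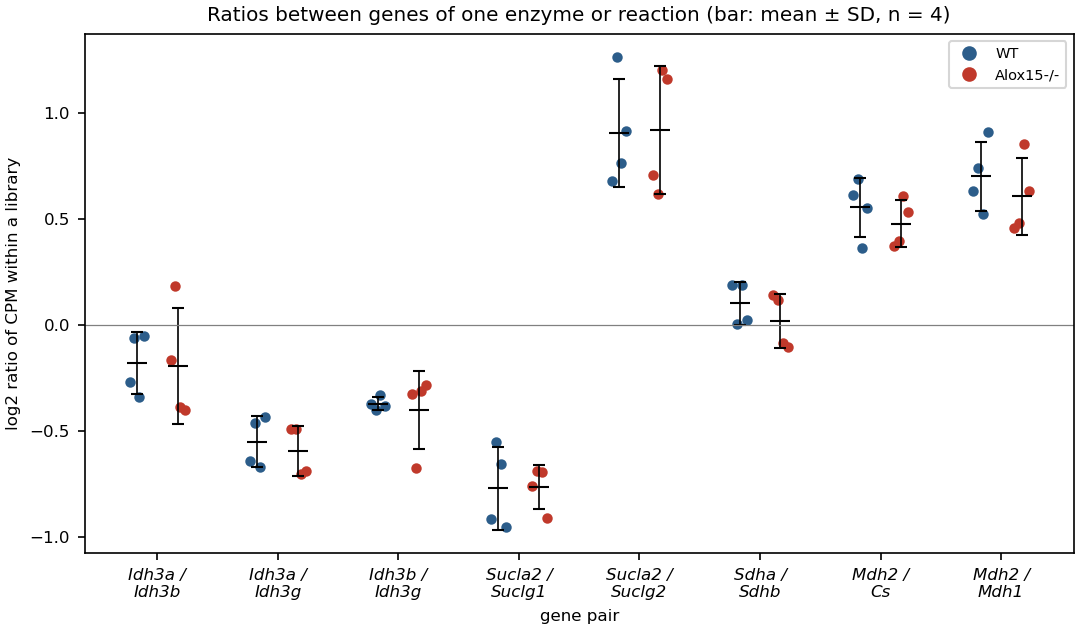
Log2 ratio of CPM within each library (y axis) for 8 pairs of genes, with WT libraries in blue, libraries labelled Alox15-/- in red and the mean ± SD (n = 4) as bars. The groups overlap in every pair, and the point of Alox15-/- replicate 2 lies apart at -0.67 for Idh3b to Idh3g.

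Among 8 other genes of the cycle (Idh2, Ogdh, Dlst, Dld, Suclg2, Sdhb, Sdhc and Sdhd), 6 had a log2 fold change below 0 and 2 above, with a median of -0.11, and 0 passed the adjusted threshold in either direction. An unadjusted p under 0.05 was reached by 2 of them, both with lower levels, where 3.38% of all genes tested reached it with lower and 4.46% with higher levels. They were Dlst, the succinyltransferase of the 2-oxoglutarate dehydrogenase complex (log2 fold change -0.30, edgeR adjusted p = 0.357), and Ogdh, the decarboxylase of the same complex (-0.24, edgeR adjusted p = 0.574). Of these, Dlst had all 4 libraries labelled Alox15-/- (82.1 to 87.7 CPM) below all 4 WT libraries (93.6 to 119.8 CPM). Whether these 2 differ from the 9 genes in their response was not tested, and their 95% intervals overlapped those of the 9.

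**Figure D4:**
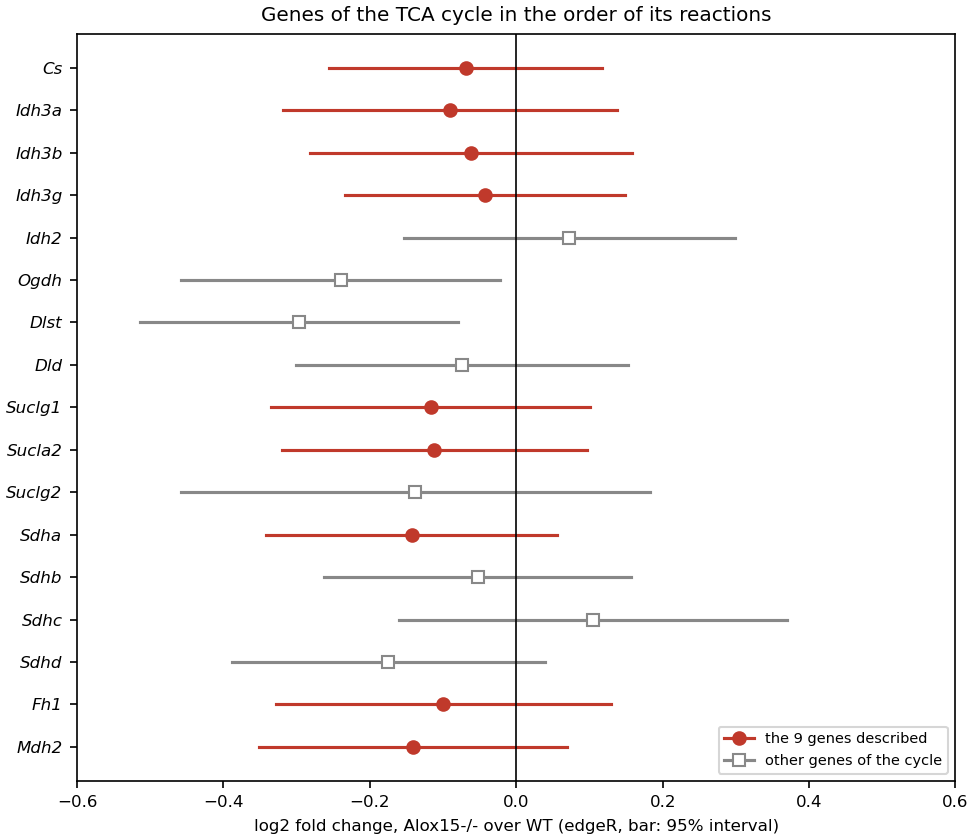
Log2 fold change of the libraries labelled Alox15-/- over WT (x axis, edgeR, bars: 95% interval) for the genes of the TCA cycle in the order of its reactions, with the 9 genes described in red and 8 others in grey. The 9 red points lie between -0.14 and -0.04 with intervals that include 0, and the grey intervals of Ogdh and Dlst lie below 0.

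The 4 assembly factors of complex II (Sdhaf1, Sdhaf2, Sdhaf3 and Sdhaf4) held 1 gene below 0 and 3 above, from Sdhaf3 (log2 fold change -0.17) to Sdhaf4 (0.08), and 0 passed. Of 15 genes for counterparts outside the cycle and for entry and exit reactions, 13 were tested, 10 below and 3 above 0, with a median of -0.06 and 0 past the threshold. The member of this list with an unadjusted p under 0.05 was Aco1, the cytosolic aconitase that also acts as an iron regulatory protein (log2 fold change -0.28, edgeR adjusted p = 0.560). The 7 carriers of the inner membrane for citrate, dicarboxylates, 2-oxoglutarate, aspartate and pyruvate had a median of -0.14, 6 below and 1 above 0, from Slc25a12 (-0.16) to Mpc2 (0.09), and 0 passed. In the list of 13 general mitochondrial proteins (porins, import receptors, chaperones, prohibitins, Tufm and Tfam) 9 were below and 4 above 0, with a median of -0.04, from Hspa9 (-0.17) to Tomm22 (0.06), and 0 passed. Together these lists held 45 tested genes, of which 71.1% had a log2 fold change below 0 and 0 passed in either direction, against 51.8% and 1.24% of all genes tested. In 3 of these 45 genes all 4 libraries labelled Alox15-/- lay below all 4 WT libraries, namely Dlst, Aco1 (32.2 to 36.01 against 37.5 to 46.8 CPM) and Hspa9 (449.7 to 477.9 against 504.7 to 574.8 CPM), and in 0 did they lie above. Over all genes tested these shares were 2.51% below and 2.74% above.

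Over the 8 libraries, the tested genes whose log2 CPM followed the mean standardized profile of the 9 genes most closely were Eif2b1 (Pearson r = 0.98), Ppid (0.96), Pus3 (0.95), Rcc2 (0.95) and Sf3b4 (0.95). They code for a subunit of a translation initiation factor, a cyclophilin, a pseudouridine synthase, a chromatin-binding protein and a splicing factor. With 8 libraries and all other genes tested to choose from, 29 genes had an r above 0.9, and all profiles come from the same 8 libraries with their depths and scaling, so these values are a description. Among the members themselves, the r between a gene and the mean of the other 8 ran from 0.25 for Idh3a and 0.36 for Idh3b to 0.84 for Mdh2, 0.85 for Idh3g and 0.85 for Fh1. The 5 genes had log2 fold changes between -0.24 (Pus3) and -0.14 (Rcc2), and 0 of them passed the adjusted threshold of edgeR.

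Although the starting cells had been selected for naïve CD4+ T cells, markers of other cells moved with the groups, and fewer cells of a type cannot be told apart from less RNA per cell in such bulk samples. The summed level of 7 erythroid markers was between 903 and 3472 CPM in the libraries labelled Alox15-/- and between 33.7 and 122 CPM in WT. For 6 mast cell and basophil markers it was 132 to 321 against 57.0 to 81.4 CPM, for 5 eosinophil markers 20.2 to 72.0 against 1.248 to 6.68 CPM, for 7 myeloid markers 33.2 to 278 against 4.21 to 9.60 CPM and for 7 NK and γδ T cell markers 71.8 to 136 against 25.5 to 39.2 CPM. Most of that last sum came from γδ T cell receptor genes such as Trdc (44.4 to 74.9 against 11.96 to 22.4 CPM), while the groups overlapped for the NK cell genes Ncr1, Klrb1c and Klrk1. They also overlapped for Kit (25.2 to 40.1 against 30.1 to 35.1 CPM), Siglecf, Ear2, Csf1r and Cd14 in the lists before it. The sums of 4 B cell markers were 5.28 to 7.29 against 7.65 to 17.96 CPM, with overlap for Cd79a and Cd79b. Those of 2 CD8 T cell markers were 12.02 to 21.8 against 21.4 to 31.6 CPM. Ear2, an eosinophil gene, had 0 counts in all 4 WT libraries and in Alox15-/- replicate 1, and was at 0.188 to 1.08 CPM in the other three, and no other listed marker was at 0 throughout a group. All these markers of other cells together were at 1531, 4130, 4016 and 1179 CPM in the libraries labelled Alox15-/- 1 to 4 and at 173 to 297 CPM in WT. The sum of the 9 genes was lowest in Alox15-/- replicate 1 and highest in replicate 3 of that group, an order that Idh3a, Idh3b, Suclg1 and Sdha did not share. The 8 T cell and Treg markers summed to 2503 to 2665 CPM in the libraries labelled Alox15-/- and 2684 to 2809 CPM in WT, a log2 ratio of the group means of -0.09. They differed in direction, since 3 of the 8 had a higher mean in the libraries labelled Alox15-/- and 5 a lower one. Cd3g, a chain of the T cell receptor complex, was at 151 to 169 CPM there and 110 to 139 CPM in WT, and Cd4 at 209 to 295 against 326 to 350 CPM, neither with overlap between the groups. The groups overlapped for the other 6, and over all genes tested 2.74% lay wholly above and 2.51% wholly below WT. The part of these differences in the values of the 9 genes was not tested.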

How the data were processed

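The table deposited by the authors holds counts, not normalized, for each gene symbol from MACE-seq libraries sequenced on an Illumina machine. The labels describe the reads as cleaned and trimmed and name a small RNA kit, whereas the methods name the MACE-Seq Kit. The submitters' processing notes name Bowtie, edgeR and GRCm38 without versions, whereas the counting tool, strand use and any collapse of duplicates are not given in the sources used here.

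Columns were assigned by their names, and 0 columns belonged to other samples. Testing was limited to genes reaching 2 CPM in 4 or more libraries, as in the methods. Counts were scaled by TMM and compared by the two-sided quasi-likelihood test of edgeR 4.0.16 in R 4.3.3 with no term other than group. Adjusted p-values are Benjamini–Hochberg values over the 12700 genes. The biological coefficient of variation was 14.5%. Standard errors and 95% intervals of a log2 fold change were derived from the F statistic. Each library came from a separate mouse, and pairs of libraries within a group differed by more than sampling noise (chi-square over degrees of freedom from 4.59 to 17.4). The steps were tested on simulated data.

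The last 500 bases of the members' GENCODE transcripts were searched for copies with blastn 2.17.0, keeping alignments of 100 bases or more with 80% identity or more. The closest, a pseudogene of Mdh2, was 89.5% identical, and the 3 copies listed in the table had at most 3 counts in a library. Tables and figures were made with pandas 2.3.3 and matplotlib 3.10.9 in Python 3.11.15.

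The members, the pathway and marker lists and the motifs were chosen with earlier results of these data known. Genes given with their own values are the members, Alox15, list genes with an unadjusted p under 0.05 or else the extremes of a list, partners in ratios, and the 5 genes most alike in profile. Foxp3 is named as a check of the cell type, Nop56 for its position and Me1 as below the filter. Acod1, Ear2, Trdc, Cd3g and Cd4 were chosen after their values were seen. Another gene of the lists is not reported here. Alternatives were other scalings (DESeq2 1.42.0 size factors, upper quartile, library totals), other filters, DESeq2, limma-voom (limma 3.58.1), the likelihood-ratio and robust tests of edgeR, the replicate number as a block, and each library left out.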

Additional observations from a re-analysis of the deposited data

Results flagged for a closer look

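The log2 ratio of Idh3b to Idh3g in Alox15-/- replicate 2 was -0.67, apart from the other three libraries of that group at -0.33 to -0.28, by Dixon's criterion for 4 samples. The CPM of Idh3b in that library was 98.5, from 365 counts, and that of Idh3g 157, from 582 counts. In all, 34 groups of 4 values were examined (9 levels and 8 ratios in each group of libraries), and chance would be expected to mark about 1 in 20 such groups. The cause was not tested.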

How the results depend on the processing

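The number of members past the adjusted threshold was 0 under all 10 other settings and with each library left out, and the number with an unadjusted p under 0.05 was 0 in all of them too. All 9 members had a log2 fold change below 0 under the 10 other settings, with medians between -0.12 and -0.07, and 8 or 9 did with a library left out, with medians between -0.12 and -0.07. For Idh3b the log2 fold change lay between -0.11 and 0.010 with a library left out, above 0 without Alox15-/- replicate 2. The other members stayed below 0 but moved in size. Fh1 lay between -0.17 and -0.03, Idh3a between -0.14 and -0.03, and Idh3g between -0.06 and -0.01. The lowest adjusted p of any member was 0.712 (edgeR or another tool, all libraries) and 0.656 with a library left out, by edgeR. The number of members whose groups do not overlap was 0 under every scaling and between 0 and 3 with a library left out. Differences between groups in the 8 ratios were also recomputed without each library, a choice made after seeing the data. They then lay between -0.18 and 0.13, and 4 of the 8 changed sign without some library. Idh3b to Idh3g went from -0.03 to 0.06 without Alox15-/- replicate 2.

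Over all genes, 388 passed without the filter on low counts, against 158 with it. These fits are not like for like, since the error estimates changed as well. The SE of Cs was 0.113 without the filter and 0.0875 with it. Between 86 and 172 passed with a library left out, the number being 95, 86 and 93 without Alox15-/- replicates 1, 2 and 3 and 105 without WT replicate 2, fits that also have fewer samples. With the replicate number as a block 146 genes and 0 members passed. The replicate numbers are shared only as numbers: deviations of libraries with the same number correlated between -0.18 and 0.17, and 1 of 4 libraries labelled Alox15-/- and 2 of 4 WT libraries correlated best with their own number.

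With 4 libraries a group, the 95% intervals of the members spanned about ±0.2 on the log2 scale, so smaller differences were not resolved. Duplicate reads may remain, and only RNA on day 2 was measured.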

Other observations

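Acod1, which makes itaconate from the TCA cycle intermediate cis-aconitate and is known from activated macrophages, was not tested because it reached 2 CPM in only 3 libraries. Its counts were 17, 40, 26 and 7 in the libraries labelled Alox15-/- and 3, 6, 1 and 1 in WT. Every library labelled Alox15-/- was thus above every WT library, but only narrowly for the closest pair. These were Alox15-/- replicate 4, with 7 counts, and WT replicate 2, with 6, both low counts. Of all genes tested, which do not include Acod1, 2.74% lay wholly above WT. In CPM the level of Acod1 was 5.19 ± 4.09 against 0.434 ± 0.381 (SD, n = 4 each). When no filter on low counts was applied, edgeR gave a log2 fold change of 3.50. The gene was chosen after its values were seen and that fit differs from the main one, so no p-value is given. The summed myeloid markers were at 33.2 to 278 CPM against 4.21 to 9.60 CPM in WT, and within the libraries labelled Alox15-/- both were highest in replicate 2 and lowest in replicate 4, as were the summed markers of mast cells and basophils, of eosinophils and of NK and γδ T cells. The erythroid and CD8 T cell sums were lowest in replicate 4 too, but highest in replicate 3. For erythroid markers it held 3472 CPM, against 3298 CPM in replicate 2. The B cell sum was highest in replicate 2 and lowest in replicate 1. The part of RNA from any of these cells in the Acod1 counts was not tested, and the negative selection at the start is meant to remove such cells. Me1, a cytosolic malic enzyme and the other gene of that list below the filter, was at 1.52 ± 0.328 against 1.57 ± 0.352 CPM (SD, n = 4 each).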
